A study of Rattus norvegicus with 10 samples.

Results

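The 10 genes described here are Hsd11b1, Htra1, Mt2A, Abcd2, Acsbg1, Ahcyl1, Aldoc, Antxr1, Cpt1a and Cxcl14. Most are metabolic or secreted-factor genes known from glia and neighbouring cells of the brain, whereas Antxr1 encodes a receptor. All 10 were picked on measured values: each was higher under the drug RG2833 in fits of these libraries with alternative models. Their differences between the groups are therefore given as a description and not as a test. They are 10 of the 17168 genes in the tables, and all 10 were among the 12161 genes that passed the filter on low counts. The RNA sequenced came from left hippocampi of 10 males at 11 months of age, all TgF344-AD rats, a strain that carries human mutant transgenes as a model of Alzheimer's disease. Both groups carried the transgenes. The 5 untreated rats ate plain chow, and the 5 RG2833 rats ate chow with 750 mg of RG2833, an inhibitor of HDAC1 and HDAC3, per kg, for 6 months from the age of 5 months. One line of the design text names ibudilast instead, whereas the title and the sample labels name RG2833 and were followed. Each library was 1 rat. Neither wild-type rats nor females were analysed here.

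Astrocytes surround synapses and capillaries and take on much of the brain's handling of lipid, glucose, steroid and metal. They oxidise fatty acids, carry out glycolysis and pass lactate to neurons, and their state shifts in Alzheimer's disease. Histone deacetylases remove acetyl groups from histones, and inhibitors of class I enzymes leave chromatin more acetylated. Aldh1l1, a folate enzyme, and Gja1, which encodes the gap junction protein connexin 43, are widely used astrocyte markers and served as comparators for the 10 genes.

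Total expected counts ran from 15118203 to 18533520 per library, and the count behind a single value of the 10 genes ran from 226 to 26781. Several libraries stood apart. Untreated replicate 3 had the highest share of counts under ribosomal RNA names, 11.4%, against 4.07% to 7.42% in the other untreated rats and 4.93% to 9.37% in RG2833 rats. The choroid plexus marker genes summed to 8222 CPM in untreated replicate 2 and 9493 CPM in RG2833 replicate 1, against 7 to 288 CPM in the other 8 libraries. Values are given as CPM, each count relative to the TMM-scaled total of its library, and log2 fold changes are RG2833 relative to untreated, each with its standard error (SE).

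In edgeR's quasi-likelihood fit with no covariate, 0 of the 12161 genes (0% of genes tested) had a Benjamini-Hochberg adjusted p under 0.05, and 0 of the 10 genes did. Before adjustment 688 genes had a p under 0.05, of which 358 were higher under RG2833, and 6 of the 10 were among these. Leaving out untreated replicate 3 gave 1732 such genes, and leaving out RG2833 replicate 4 or 5 gave 375 or 424. All 10 had a higher RG2833 mean, where 46.5% of all genes tested were higher, and their median log2 fold change was 0.40 against -0.01 over all genes. DESeq2 called 6 genes, all higher (0.0409% of genes tested), and 3 were among the 10: Hsd11b1, Mt2A and Htra1. With 2 surrogate variables, which are covariates estimated from the expression data themselves, edgeR called 43 genes higher (0.354%) and 8 of the 10, leaving out Mt2A and Antxr1. With 2 surrogate variables computed from counts not scaled for depth, it called 31 genes (0.255%) and 9 of the 10. Which models picked the genes is not given in the sources used here, and this fit misses 1 of them. Among the 10, Ahcyl1 stood nearest inside its threshold with an adjusted p of 0.0391, and Mt2A stood outside at 0.0952. Since fits of this contrast chose the genes, the counts are read no further.

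Hsd11b1 encodes the enzyme that regenerates active glucocorticoid from its inactive 11-keto form inside cells. It was at 67.3, 55.5, 75.6, 60.4 and 64.8 CPM in untreated replicates 1 to 5 and at 75.2, 94.4, 98.6, 106 and 108 CPM in RG2833 replicates 1 to 5. The groups overlapped at 1 point, where RG2833 replicate 1 lay just under untreated replicate 3, and the other 4 RG2833 rats lay above every untreated rat. The means were 64.7 ± 7.56 and 96.6 ± 13.2 CPM (SD, n = 5 each), a difference of 49.2% and a log2 fold change of 0.58 (SE 0.11). Of 8 tested genes of glucocorticoid metabolism and its receptors, 2 were higher and 6 lower under RG2833, with a median log2 fold change of -0.05, and 0 passed. Among them H6pd, which supplies the cofactor of Hsd11b1 in the endoplasmic reticulum, was at -0.01 (SE 0.09), and Nr3c1, the glucocorticoid receptor, at 0.12 (SE 0.07). Hsd11b2, which runs the reaction the other way, was below the filter. Of 14 glucocorticoid-responsive genes, 9 were higher and 5 lower with a median of 0.02. Without untreated replicate 3 these medians were -0.12 and -0.01. Tsc22d3, the glucocorticoid-induced leucine zipper gene, had the smallest p of these and was at 74.6 ± 6.36 and 85.1 ± 14.6 CPM.

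Htra1 encodes a secreted serine protease that cleaves extracellular matrix proteins. Its untreated libraries held 175, 152, 186, 170 and 172 CPM and its RG2833 libraries 208, 224, 227, 264 and 303 CPM. Every RG2833 rat lay above every untreated rat, with means of 171 ± 12.2 and 245 ± 38.2 CPM and a log2 fold change of 0.52 (SE 0.10). Groups apart in this way, with RG2833 higher, were seen in 51 genes (0.419% of genes tested), of which 2 were among the 10, Htra1 and Mt2A. The related proteases showed smaller differences, with log2 fold changes of 0.00 (SE 0.05) for Htra2, 0.21 (SE 0.18) for Htra3 and -0.13 (SE 0.29) for Htra4. In the list of Htra and anthrax toxin receptor relatives and matrix substrates, 6 of 12 tested genes were higher and 6 lower, and 0 passed. Fn1, which encodes fibronectin, had the smallest p there, at 0.34 (SE 0.24).

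Mt2A is a metallothionein gene, whose small cysteine-rich protein binds zinc and copper. It was at 41.4, 50.7, 45.0, 49.0 and 54.3 CPM in untreated rats and at 63.3, 66.6, 79.1, 62.0 and 88.2 CPM in RG2833 rats. The groups did not overlap, and the means were 48.1 ± 5.02 and 71.8 ± 11.4 CPM, a difference of 49.4% and a log2 fold change of 0.58 (SE 0.11). Metallothionein promoters are known for metal response elements, which the zinc-sensing factor MTF1 binds. The 250 bases before the start of 8 of the 10 genes were found in RefSeq promoters of the GRCr8 assembly, and those of Hsd11b1 and Antxr1 were not. The motif was searched as TGCGCNC or TGCACNC on both strands. Mt2A held 4 matches, starting 220, 165, 111 and 55 bases before its start, Cxcl14 held 2, and Acsbg1 and the comparator Gja1 held 1 each. At least 1 match was present in 20.6% of the 33469 promoters of this length, and at least 4 in 0.266%. The promoters with the most matches are shown 5′ to 3′ in the direction of the gene, with each match in capitals, Mt2A from chr19:10838709-10838958 on the minus strand and Cxcl14 from chr17:8322900-8323149 on the plus strand.
Mt2A: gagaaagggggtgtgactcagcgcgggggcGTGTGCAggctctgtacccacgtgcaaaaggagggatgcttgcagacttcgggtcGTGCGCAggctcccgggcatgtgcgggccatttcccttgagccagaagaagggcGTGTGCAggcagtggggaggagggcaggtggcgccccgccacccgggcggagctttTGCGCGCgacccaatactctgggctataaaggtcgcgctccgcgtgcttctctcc
Cxcl14: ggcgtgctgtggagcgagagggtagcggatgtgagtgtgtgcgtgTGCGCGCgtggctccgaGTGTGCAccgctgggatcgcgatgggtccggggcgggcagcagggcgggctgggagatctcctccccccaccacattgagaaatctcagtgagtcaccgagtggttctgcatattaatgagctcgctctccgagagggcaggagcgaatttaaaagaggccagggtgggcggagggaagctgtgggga
In each run the gene starts at the base after the last one printed. A match is a stretch of letters and no measure of binding. The glucocorticoid half-site TGTTCT, present on either strand in 17.5% of promoters, was in 0 of the 8, and the GC box GGGCGG, present in 30.5%, was in Cxcl14 3 times, in Acsbg1 2 times and once each in Mt2A, Abcd2 and Aldoc, and 2 times in the comparator Aldh1l1.

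Of 12 tested genes of metal handling, 8 were higher and 4 lower with a median log2 fold change of 0.09, 2 had an unadjusted p under 0.05 and 0 passed adjustment. Mt3, the brain's metallothionein, was at 297 ± 31.7 and 352 ± 29.1 CPM, a log2 fold change of 0.25 (SE 0.09). Mt1a was at 7.72 ± 1.19 and 8.23 ± 1.15 CPM. Cp, which encodes the copper-carrying ferroxidase ceruloplasmin, was lower in the mean at 25.0 ± 17.6 and 13.6 ± 1.84 CPM, with untreated libraries from 13.0 to 55.2 CPM. Its log2 fold change of -0.88 (SE 0.37) was larger in size than that of Mt2A. With 2 surrogate variables the order turned, with Cp at -0.47 and Mt2A at 0.56. Metallothionein copies resemble one another, so reads could have been split between them in the counting.

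**Figure D1:**
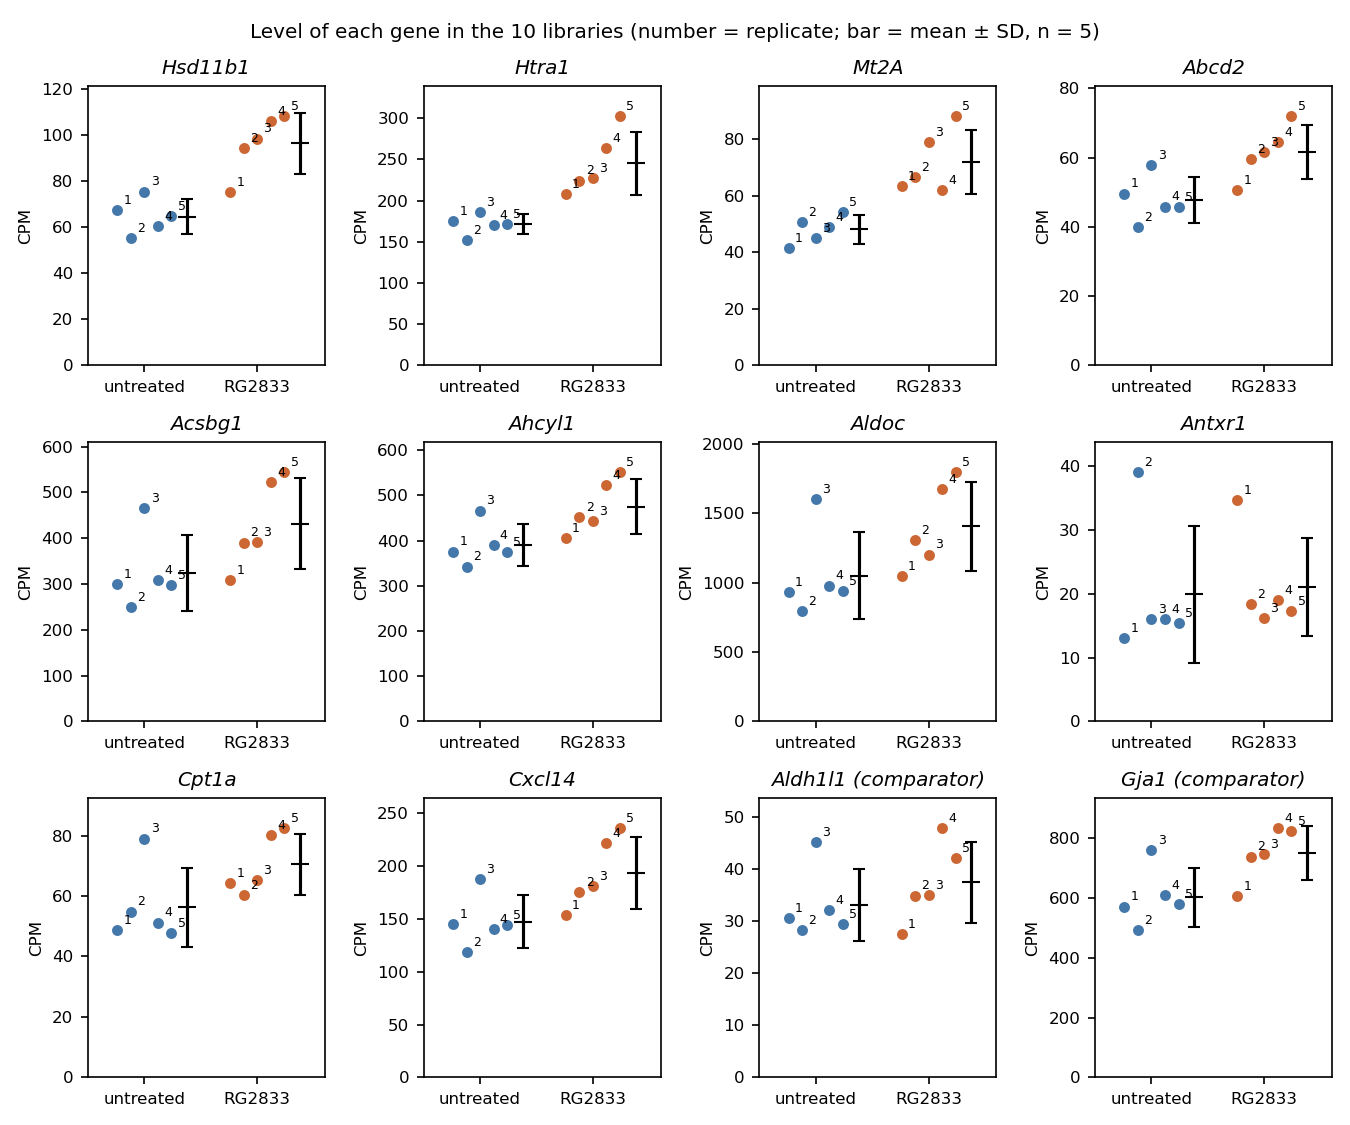
CPM of the 10 genes and of the comparators Aldh1l1 and Gja1 in each library, with a line at the mean and a bar of 1 SD (n = 5 per group); the numbers beside points are replicate numbers. The groups are apart in Htra1 and Mt2A, and untreated replicate 3 lies high in Acsbg1, Aldoc and Cpt1a.

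The lipid genes were Abcd2, Acsbg1 and Cpt1a. Abcd2 encodes a transporter of very long-chain fatty acids into peroxisomes. It was at 49.6, 40.0, 57.8, 45.9 and 45.6 CPM in untreated rats and 50.7, 59.5, 61.5, 64.4 and 72.0 CPM in RG2833 rats. RG2833 replicate 1 lay inside the untreated range and the other 4 above it, and the log2 fold change was 0.37 (SE 0.11). Acsbg1, the bubblegum acyl-CoA synthetase that activates long-chain fatty acids, was at 300, 249, 465, 309 and 298 CPM in untreated rats and 308, 390, 392, 523 and 544 CPM in RG2833 rats. The untreated range reached 465 CPM through replicate 3 alone, and 2 RG2833 rats lay above it. The means were 324 ± 82.2 and 432 ± 99.4 CPM. The log2 fold change was 0.41 (SE 0.19), or 0.58 if untreated replicate 3 is left out. Cpt1a encodes the carnitine palmitoyltransferase that lets fatty acids into mitochondria. It was at 48.7, 54.8, 79.0, 51.2 and 47.6 CPM in untreated rats and at 64.3, 60.4, 65.2, 80.1 and 82.5 CPM in RG2833 rats. Untreated replicate 3 again stood within the RG2833 range while the other 4 untreated rats stood below it, and the log2 fold change was 0.33 (SE 0.15).

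In the 14 tested genes of fatty acid activation and transport, 8 were higher and 6 lower with a median of 0.02, and 0 passed. The 2 with an unadjusted p under 0.05 were Acot11, an acyl-CoA thioesterase gene, at 8.22 ± 1.39 and 11.5 ± 2.17 CPM, and Acsl6, a brain acyl-CoA synthetase gene, at 189 ± 16.1 and 221 ± 20.8 CPM. Abcd3, which encodes another peroxisomal transporter, had a log2 fold change of 0.01 (SE 0.05). In the fatty acid oxidation list, 15 of 18 tested genes were higher and 3 lower, with a median of 0.11 against -0.01 over all genes, and 0 passed. Hadhb, the beta subunit of the mitochondrial trifunctional protein, was the 1 gene of that list with an unadjusted p under 0.05, at 112 ± 8.26 and 128 ± 10.6 CPM. Of the other carnitine palmitoyltransferases, Cpt2 was at 0.23 (SE 0.11), Cpt1c at -0.06 (SE 0.11) and Cpt1b at -0.22 (SE 0.34). Without untreated replicate 3 Cpt1c was at -0.11 and Cpt1b at 0.04.

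Aldoc encodes aldolase C, the brain form of a glycolytic enzyme. It was at 933, 796, 1599, 977 and 941 CPM in untreated rats and at 1045, 1305, 1202, 1674 and 1797 CPM in RG2833 rats. All 5 RG2833 rats lay above 4 of the 5 untreated rats, and 2 lay above untreated replicate 3. The log2 fold change was 0.42 (SE 0.21), and 0.62 without that replicate. The form found in most tissues, Aldoa, was at 1752 ± 199 and 1710 ± 85.8 CPM. Glycolysis and lactate transport genes were higher in 8 and lower in 12 of 20 tested, with a median of -0.02, and 0 passed. Slc16a1, which encodes the lactate transporter MCT1, had the smallest p of these and was at 40.8 ± 3.89 and 46.6 ± 5.17 CPM.

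Ahcyl1 encodes IRBIT, a relative of S-adenosylhomocysteine hydrolase that binds the inositol trisphosphate receptor. Its values were 375, 343, 466, 390 and 375 CPM in untreated rats and 406, 452, 442, 523 and 552 CPM in RG2833 rats. Untreated replicate 3 lay above 3 RG2833 rats, and the log2 fold change was 0.29 (SE 0.11). In the list of its relatives, methionine cycle enzymes and inositol trisphosphate receptors, 7 of 11 tested genes were higher and 4 lower, and 0 passed. With 2 surrogate variables Cbs of this list was called, at 0.32 (edgeR adjusted p = 0.0398). With those from unscaled counts Cbs was not called. Itpr1, the main inositol trisphosphate receptor in neurons, was the 1 gene with an unadjusted p under 0.05 without a covariate, at 654 ± 73.4 and 813 ± 81.2 CPM. The relatives Ahcy and Ahcyl2 had log2 fold changes of -0.04 (SE 0.09) and -0.00 (SE 0.24). Cxcl14, a chemokine gene, was at 145, 119, 188, 141 and 144 CPM in untreated rats and 153, 175, 181, 221 and 236 CPM in RG2833 rats. Its log2 fold change was 0.39 (SE 0.14), and 3 RG2833 rats lay under untreated replicate 3. Of 4 tested chemokine and receptor genes, Cxcl12 was higher, at 0.22 (SE 0.11), and the CXC genes Cxcl16 and Cxcr4 and the CX3C gene Cx3cl1 were lower, at -0.30 (SE 0.26), -0.23 (SE 0.20) and -0.09 (SE 0.08).

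Antxr1, a receptor for anthrax toxin that binds collagen, differed from the other 9 genes in its pattern over libraries. It was at 13.0, 39.1, 16.0, 16.0 and 15.4 CPM in untreated rats and at 34.7, 18.5, 16.2, 18.98 and 17.3 CPM in RG2833 rats. The high value of each group belonged to the library rich in choroid plexus markers, untreated replicate 2 and RG2833 replicate 1. Those libraries also held the highest summed fibroblast and meningeal markers, 1217 and 759 CPM against 62 to 153 CPM elsewhere. The log2 fold change was 0.08 (SE 0.32), and -0.17 without RG2833 replicate 1. Without both libraries it was 0.22 (SE 0.09), with means of 15.1 ± 1.41 CPM in 4 untreated rats and 17.7 ± 1.25 CPM in 4 RG2833 rats. With 2 surrogate variables from unscaled counts it was 0.40 (SE 0.07). The part of choroid plexus and meningeal tissue in these values was not tested.

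Both comparators also had higher RG2833 means. Aldh1l1 was at 30.6, 28.4, 45.3, 32.2 and 29.5 CPM in untreated rats and 27.5, 35.0, 35.1, 48.0 and 42.2 CPM in RG2833 rats. Gja1 was at 571, 492, 760, 610 and 580 CPM in untreated rats and 607, 738, 746, 834 and 824 CPM in RG2833 rats. As in Abcd2 and Acsbg1, untreated replicate 3 was the highest and RG2833 replicate 1 the lowest of its group. The comparators were named together with the 10 genes, with earlier results of these data known, and vary with them over the same rats, so their tests are not independent of the choice. The log2 fold changes were 0.18 (SE 0.17) and 0.32 (SE 0.12), with edgeR adjusted p of 0.920 and 0.841. With 2 surrogate variables Gja1 was itself called, at 0.25 (SE 0.04) with an edgeR adjusted p of 0.0398, and Aldh1l1 was not, at 0.10 (SE 0.07) and 0.530. With those from unscaled counts neither was called, and Gja1 had an edgeR adjusted p of 0.0623. With 1 library left out, Aldh1l1 ran from 0.08 (without RG2833 replicate 4) to 0.31 (without untreated replicate 3), and was 0.27 without RG2833 replicate 1. Gja1 ran from 0.25 (without untreated replicate 2) to 0.41 (without untreated replicate 3). The groups were also compared by exact permutation, two-sided, for which the smallest possible p is 0.00794. The difference in mean log2 CPM was 0.17 for Aldh1l1 (exact p = 0.349, adjusted 0.349) and 0.32 for Gja1 (exact p = 0.0556, adjusted 0.167). For the mean of both it was 0.25 (exact permutation p = 0.167, adjusted 0.25, over 3 tests). In the astrocyte marker list, which holds both comparators, 14 of 14 tested genes were higher, with a median log2 fold change of 0.32, 4 at an unadjusted p under 0.05 and 0 passing. With 2 surrogate variables 2 of the 14 were called, Gja1 and Fgfr3, a fibroblast growth factor receptor gene at 0.42 (edgeR adjusted p = 0.0153), and with those from unscaled counts 1 was, Fgfr3. Summed, they were at 8064 to 12271 CPM in untreated and 9256 to 13975 CPM in RG2833 rats, and none was at 0. In a hippocampal homogenate, more astrocytes and more RNA of these genes per astrocyte cannot be told apart.

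**Figure D2:**
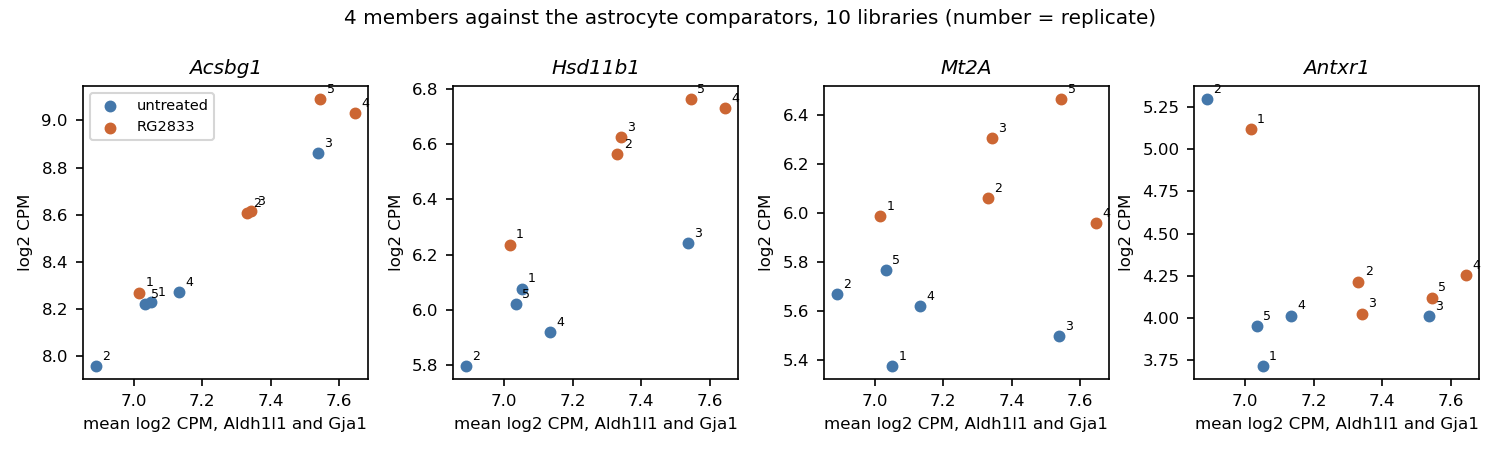
Log2 CPM of Acsbg1, Hsd11b1, Mt2A and Antxr1 against the mean log2 CPM of Aldh1l1 and Gja1, 1 point per library, untreated and RG2833 in different colours. Acsbg1 and Hsd11b1 climb with the comparators (r after centring each group 0.980 and 0.903), Mt2A shows no slope (0.0036), and Antxr1 slopes down (-0.574).

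After each group was centred on its own mean, 8 of the 10 genes had a Pearson r above 0.7 with the mean of Aldh1l1 and Gja1 over the 10 libraries, as had 17.8% of the 12159 genes other than the comparators. These values come from the libraries that also chose the genes and share their depth and scaling, and no p is given. The highest were Acsbg1 at 0.980 (Spearman's rho 0.891), Aldoc at 0.962 (0.903), Ahcyl1 at 0.956 (0.879) and Cxcl14 at 0.947 (0.806). Abcd2 stood at 0.907, Hsd11b1 at 0.903, Cpt1a at 0.798 and Htra1 at 0.793. Mt2A, at 0.0036, and Antxr1, at -0.574, did not follow the comparators. Without RG2833 replicate 1 and untreated replicate 3, the libraries farthest from the comparators' median, r was 0.938 for Acsbg1, 0.679 for Abcd2, 0.695 for Hsd11b1 and 0.596 for Cpt1a. The comparators themselves went together with r 0.941 and rho 0.988 (within-group permutation p = 0.000208 and 0.000347, from 14400 permutations), and r was 0.757 without those 2 libraries. Over the 45 pairs among the 10 genes the median r was 0.82. All 36 pairs without Antxr1 were positive, and 0 of the 9 with it. The 9 pairs with Mt2A lay near 0, from -0.07 to 0.30 with a median of 0.12.

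Several of the 10 genes also went with markers of other cells. Aldoc had an r of 0.983 with the astrocyte list and 0.964 with the microglial list. Cpt1a was highest with the endothelial list at 0.907, had 0.840 with the astrocyte list and stood at -0.942 with the neuronal list. Htra1 had nearly the same r with the list of oligodendrocyte precursors, 0.853, and with the astrocyte list, 0.842. Mt2A had its highest r with the erythroid list at 0.657. Antxr1 had 0.954 with the fibroblast and meningeal list and 0.945 with the choroid plexus list. Between the groups, the microglial list had 7 genes higher and 3 lower with a median log2 fold change of 0.07 and sums of 570 to 1061 CPM in untreated and 613 to 856 CPM in RG2833 rats. Endothelial markers were higher in 7 and lower in 2, with a median of 0.27, and neuronal markers higher in 1 and lower in 9, with a median of -0.08. Without untreated replicate 3 these medians were 0.27 for microglia, 0.46 for endothelium and -0.17 for neurons. Markers of oligodendrocyte precursors were higher in 4 of 5, with a median of 0.03, or 0.22 without untreated replicate 3. Oligodendrocyte markers were higher in 2 and lower in 8, with a median of -0.14, or -0.27 without untreated replicate 3. In the lists that Antxr1 and Mt2A followed best, 0 genes passed. For fibroblasts and meninges 0 of 8 genes were higher, with a median of -0.95, or -0.24 without untreated replicate 2 and RG2833 replicate 1. Of 3 erythroid genes 0 were higher, with a median of -0.49, which was 0.06 without untreated replicate 5, -0.32 without untreated replicate 2 and -0.22 without untreated replicate 2 and RG2833 replicate 1, and sums of 10.3 to 58.2 CPM in untreated and 12.5 to 23.0 CPM in RG2833 rats. The part of cell composition and of ribosomal RNA share in the differences of the 10 genes was not tested.

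**Figure D3:**
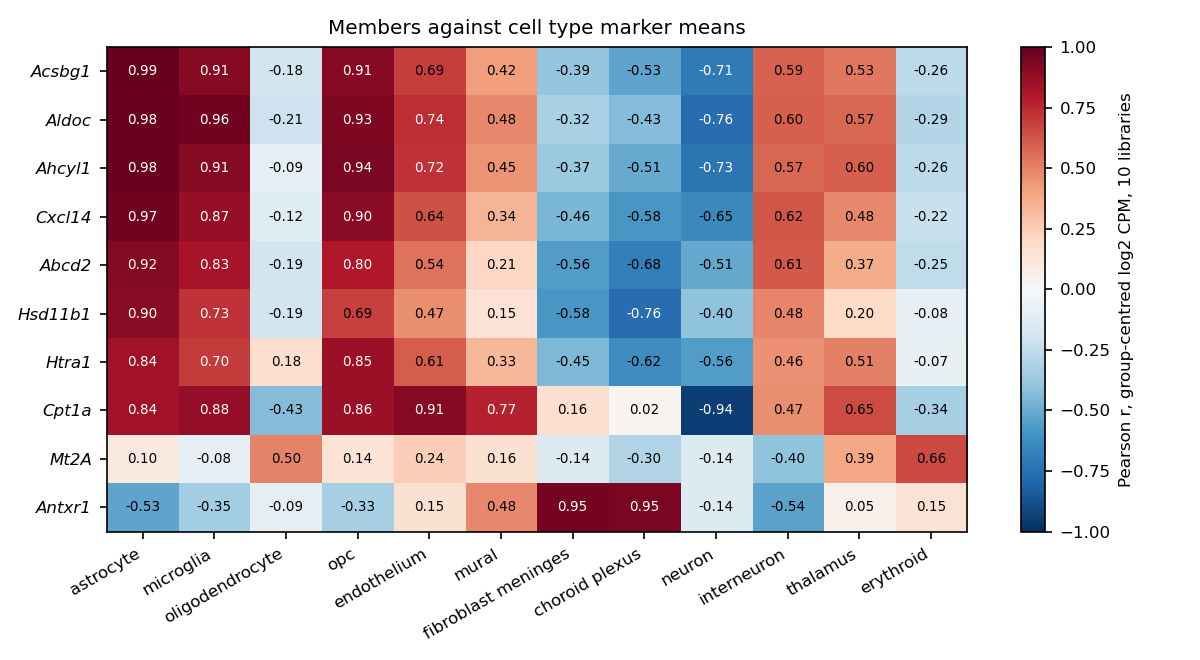
Pearson r, after centring each group on its mean, between each of the 10 genes (rows) and the mean log2 CPM of each cell type marker list (columns), over 10 libraries. Rows for Acsbg1, Ahcyl1 and Aldoc are high for astrocytes, microglia and oligodendrocyte precursors, Cpt1a is low for neurons, and Antxr1 is high for choroid plexus and fibroblasts.

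Taken relative to the comparators, that is, with the mean log2 CPM of Aldh1l1 and Gja1 subtracted in each library, 9 of the 10 genes were still higher in RG2833 rats, with a median difference of 0.16. Over 12159 genes 6.44% were higher on this measure, with a median difference of -0.25, since the comparators' own difference of 0.25 is subtracted from every gene. Hsd11b1 was higher by 0.32 (SD 0.14 untreated, 0.07 RG2833, n = 5 each), and the groups did not overlap. On this measure that held, with RG2833 higher, for 5 of 12159 genes (0.0411%), and Hsd11b1 had been chosen for being higher. Mt2A was also higher by 0.32 but with SDs of 0.33 and 0.28, and Htra1 was higher by 0.26 with 4 RG2833 rats above all untreated rats. The other differences were 0.19 for Aldoc, 0.17 for Acsbg1, 0.15 for Cxcl14, 0.12 for Abcd2, 0.09 for Cpt1a and 0.04 for Ahcyl1, and -0.10 for Antxr1. With the comparators' mean as a covariate in the edgeR fit, 0 genes were called and the log2 fold changes were 0.58 (SE 0.13) for Mt2A, 0.40 (SE 0.07) for Hsd11b1 and 0.37 (SE 0.08) for Htra1. They were 0.08 (SE 0.06) for Acsbg1, 0.09 (SE 0.08) for Aldoc, 0.12 (SE 0.05) for Ahcyl1, 0.13 (SE 0.10) for Cpt1a, 0.16 (SE 0.06) for Cxcl14 and 0.19 (SE 0.07) for Abcd2. Antxr1 moved the other way, from 0.08 (SE 0.32) to 0.44 (SE 0.30). The median over the 10 genes was 0.18, against 0.40 without the covariate, and 0.01 over all genes. Mt2A thus had the value it had without the covariate, while Acsbg1 and Aldoc, at 0.41 and 0.42 without it, came near 0.

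**Figure D4:**
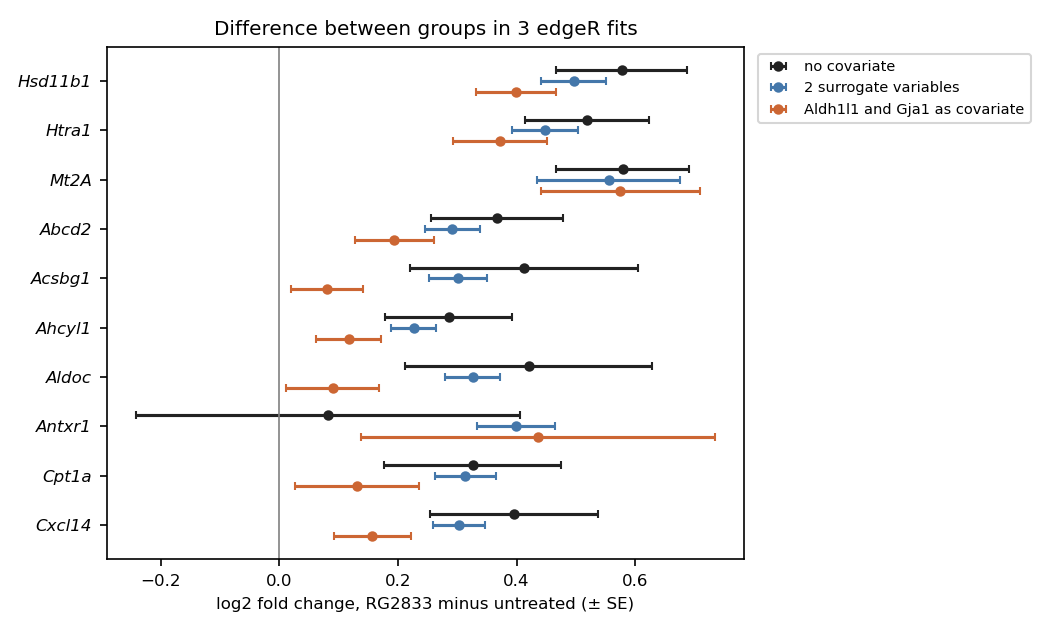
Log2 fold change (RG2833 relative to untreated) of each gene in 3 edgeR fits, with bars of 1 SE: no covariate, 2 surrogate variables from unscaled counts, and the mean of Aldh1l1 and Gja1 as covariate. Acsbg1 goes from 0.41 to 0.08 with the comparators as covariate, and Mt2A stays at 0.58.

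Several of the lists and relatives lay close to 0, and they are given here with and without untreated replicate 3. Leaving it out took the median log2 fold change from 0.02 to 0.00 for fatty acid activation and transport and from -0.02 to -0.04 for glycolysis. The median went from 0.08 to 0.05 for the relatives of Ahcyl1 and from -0.02 to 0.08 for the Htra and matrix list. Aldoa went from -0.03 (SE 0.09) to -0.10 and Ahcy from -0.04 (SE 0.09) to -0.11. Ahcyl2 went from -0.00 (SE 0.24) to -0.14 and Abcd3 from 0.01 (SE 0.05) to -0.02.

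The first of the 2 surrogate variables computed from depth-scaled counts had r 0.952 with the comparators' mean after centring, and the second 0.12. With 1 surrogate variable 0 genes were called. Among the 12151 other genes, those whose group-centred pattern was most like the mean profile of the 10 were Tom1 at r 0.986, Ppp2r5a at 0.984, Phospho1 at 0.982, Pde8b at 0.982 and Etv4 at 0.981 (n = 10 libraries). Their log2 fold changes were 0.06 (SE 0.08) for Tom1, which encodes an endosomal trafficking protein, 0.21 (SE 0.10) for Ppp2r5a, 0.20 (SE 0.13) for Phospho1, 0.19 (SE 0.18) for Pde8b and 0.30 (SE 0.27) for Etv4. Aldh1l1 ranked 447 at r 0.915 and Gja1 ranked 563 at 0.901. The spread between rats within a group, as the residual SD of log2 CPM, had a median of 0.22 in the 10 genes and 0.19 over all genes tested.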

How the data were processed

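Per the submitters' processing notes, the authors used bcl2fastq 2.17, Bowtie2 2.1.0, RSEM 1.2.15, edgeR and the build rn6; the libraries came from a strand-specific mRNA kit, per the labels' protocols. The deposited tables hold RSEM expected counts, of which 11.6% were not whole, and the authors' TMM-normalized CPM signal. Of its values 100% were whole multiples of 1 read (tolerance 0.01 reads), and 99.9% of these reads equalled the rounded expected counts, so a count test on them would use nearly the numbers tested here.

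Expected counts were rounded and filtered with filterByExpr (minimum count 10, total 15), leaving 12161 of 17168 genes. They were scaled by TMM and fitted with edgeR 4.0.16 in R 4.3.3 (quasi-likelihood F test, robust, Benjamini-Hochberg over the genes tested). SEs come from the F statistic, log2 CPM used a prior count of 2, and the fit was tested on simulated data. Alternatives used other scaling, filters, DESeq2 1.42.0, limma 3.58.1, sva 3.50.0, covariates and left-out libraries. The 10 genes and all gene lists were chosen with earlier results of these data known. The genes named beside the 10 are close relatives, most of them fixed by name, list genes with an unadjusted p under 0.05 or the smallest p of the list, and the 5 most alike over libraries. Cbs was named for its call with 2 surrogate variables. No 2 libraries were duplicates (chi-square per gene at least 7.38 over 45 pairs). The labels do not give litters or cages, so p-values measure the spread between these rats. Promoters come from RefSeq, assembly GRCr8, and were matched by symbol.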

Additional observations from a re-analysis of the deposited data

Results flagged for a closer look

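In groups of 5 rats, a value was singled out where its gap to the nearest other rat exceeded 0.71 of the group's range. This held for 6 of the 24 groups examined (12 genes, 2 groups each), where chance gives about 1 in 20 for independent groups. These groups are not independent, since they come from the same 10 rats and many of the genes vary together. Untreated replicate 3 was high in 4 of them. It held 465 CPM of Acsbg1 against 249 to 309 CPM in the other untreated rats, 1599 CPM of Aldoc against 796 to 977 CPM, 79.0 CPM of Cpt1a against 47.6 to 54.8 CPM and 45.3 CPM of Aldh1l1 against 28.4 to 32.2 CPM. Antxr1 stood out in both groups, at 39.1 CPM in untreated replicate 2 against 13.0 to 16.0 CPM in the others and at 34.7 CPM in RG2833 replicate 1 against 16.2 to 18.98 CPM.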

How the results depend on the processing

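Genes were called in 3 alternatives. DESeq2 called 6 genes and 3 of the 10, 2 surrogate variables 43 and 8, and 2 surrogate variables from counts not scaled for depth, added after the data were seen, 31 and 9. The cause was not tested. The other 20 alternatives called 0 genes and 0 of the 10. Their median log2 fold change ran from 0.32 to 0.52 with a library left out, and was 0.18 with Aldh1l1 and Gja1 as a covariate, which removes what goes with the comparators. In each alternative 9 or 10 of the 10 genes were higher under RG2833. Antxr1 turned to -0.04 without untreated replicate 1 and -0.17 without RG2833 replicate 1 (range -0.17 to 0.48 with a library left out). The mean of the comparators ran from 0.18 to 0.36 with a library left out, and from 0.17 to 0.36 over all alternatives. The group-centred correlation of the mean of the 10 genes with the comparators was 0.893, 0.81 to 0.93 with a library left out, and 0.70 without the 2 libraries farthest from the median.

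The labels number the rats 1 to 5 in each group but do not pair them. Deviations of same-numbered rats correlated from -0.49 to -0.03, and 0 of 5 untreated libraries went best with their own number. With the replicate number as a block, 0 genes were called and the median over the 10 genes was 0.40.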
